A study of Homo sapiens with 26 samples.

Results

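The integrated stress response is a signalling pathway through which cells slow protein synthesis and make a set of stress proteins. Its genes were followed here in ribosome footprint libraries as a fixed set of 10 members, taken by gene symbol from the 19478 coding sequences of the deposited tables: ATF4, ATF5, CEBPG and DDIT3, which encode transcription factors, ASNS, TRIB3, CHAC1 and SESN2, which are targets of ATF4, and PPP1R15A and PPP1R15B, which encode the regulatory subunits of the phosphatase that ends the response. All 10 symbols were found on 1 transcript each. Footprints are the stretches of mRNA that a ribosome shields from RNase I, so a footprint level reflects both the amount of an mRNA and how often it is translated. No mRNA measurement accompanies these libraries, and those parts of a difference cannot be told apart.

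The data were 26 libraries of 3 untreated human cell lines in 4 tables, one table per experiment. HEK293T (8 libraries) and HEK293FT (2 libraries) are embryonic kidney lines that carry the SV40 large T antigen. K562 (16 libraries in a size selection table of 4 and a kit table of 12) was derived from chronic myeloid leukaemia and has erythroid features. The HEK lines were grown in DMEM and K562 in RPMI, both with serum, and all lysates held cycloheximide. In the HEK293T table, 2 undepleted libraries stood beside 2 each made with Ribo-Zero Gold, RiboCop and NEBNext, all from fragments of 15 to 35 nt. The K562 size selection table had 1 undepleted and 1 NEBNext library for each of 20 to 34 nt and 20 to 60 nt. The K562 kit table (20 to 34 nt) had pairs of libraries made without depletion, with FastSelect and with riboPools in its usual and its cold elution, and 1 library each with Ribo-Zero Plus alone, with added oligos, with formaldehyde and with both. HEK293FT (15 to 35 nt) gave 1 undepleted library and 1 depleted with custom oligos. Ribosomal RNA is digested by a nuclease in NEBNext and Ribo-Zero Plus, captured by probes in riboPools, RiboCop and Ribo-Zero Gold, and kept from being copied by FastSelect.

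In the textbook pathway, a kinase that senses missing amino acids, unfolded protein, haem shortage or double-stranded RNA phosphorylates the initiation factor eIF2, and most translation falls. The main coding sequences of ATF4, ATF5, DDIT3, PPP1R15A and PPP1R15B lie behind upstream open reading frames that let them keep or gain ribosomes under those conditions. ATF4 then pairs with C/EBP proteins on a composite promoter element and turns on genes of amino acid supply and of the response's own shut-off.

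Because ATF4 pairing is what ties the targets to the factor, the promoters of the members were searched for the core of that element, TGATGNAA, on both strands. RefSeq windows (GRCh38.p14, 250 bases before to 50 after each transcript start) were found for all 10 members, in 18 windows. The core stood in 4 members, PPP1R15B, ASNS, CHAC1 and CEBPG. It was present in 3.62% of all 35116 windows and in at least 1 window of 4.46% of all 27305 genes. The stretches around the 4 matches are shown because these are the only member promoters with those letters. They are printed 5′ to 3′ along the gene's strand with the match in capitals, and the CHAC1 match is the reverse complement of the core.
PPP1R15B, chr1:204412011-204412067, minus strand: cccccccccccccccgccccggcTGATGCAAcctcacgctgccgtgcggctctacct
ASNS, chr7:97872458-97872487, minus strand: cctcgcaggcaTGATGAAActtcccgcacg
CHAC1, chr15:40953251-40953280, plus strand: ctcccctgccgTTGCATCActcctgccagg
CEBPG, chr19:33374045-33374104, plus strand: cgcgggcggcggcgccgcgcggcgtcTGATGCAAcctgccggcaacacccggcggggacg
The matches began 227, 68, 209 and 42 bases before the RefSeq transcript start for PPP1R15B, ASNS, CHAC1 and CEBPG. The ASNS and CHAC1 stretches also overlap an exon in GENCODE release 29. A match describes letters in a window, and its absence from the ATF4, ATF5, DDIT3, PPP1R15A, SESN2 and TRIB3 windows says nothing about binding elsewhere.

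Library totals set what could be seen. They ran from 120019 to 421521 counts in HEK293T, from 46858 to 441249 in the K562 size selection table, from 116742 to 5795774 in the K562 kit table, and were 900763 and 5747772 in HEK293FT. Levels are given as CPM, the library's counts scaled to a common total, and a level of 3 counts or fewer was treated as at the floor, which is 25 CPM in the shallowest HEK293T library and 0.518 CPM in the deepest K562 library. The lines carried their own markers: 10 erythroid genes summed to between 3712 and 12993 CPM in the K562 libraries and to 15 CPM or less in the HEK libraries, while 8 genes used as HEK markers (CDH2, TJP1, YAP1, WWTR1, PAX2 and the neuronal filament genes NEFM, NEFL and INA) summed to between 447 and 1023 CPM in HEK libraries and to between 63.1 and 216.5 CPM in K562, where 5 to 7 of the 8 were at 0 in each library. NEFM, YAP1 and WWTR1 were at 0 in all 16 K562 libraries, and PAX2, the renal factor of the list, was at 0 there and in 8 of the 10 HEK libraries. TJP1 was above 0 in all 16 K562 libraries. Where 7 of the 8 were at 0 it made up the whole K562 sum, so its presence does not mark the HEK lines. Between K562 and the HEK lines, cell line, medium, experiment and fragment size change together and cannot be told apart. HEK293T and HEK293FT share medium and fragment size, and there line, experiment and depth cannot be told apart. The 2 undepleted pairs of K562 compare tables of 1 line, and 16 of 5551 genes were called between them (0.288%, edgeR adjusted p under 0.05). The size selection pair was shallow, at 190243 and 46858 counts, and its libraries differ in fragment size. Few calls therefore do not show that the tables differ little. Of the 10 members, 5 were tested there and 0 were called, with 1, SESN2, at an unadjusted p under 0.05 in edgeR. DESeq2 gave an adjusted p for 1 member there and called 0.

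ATF4, the central transcription factor of the response (chromosome 22, 39520564 to 39522683, plus strand, 2 coding exons), was lower in K562. Its undepleted levels in HEK293T were 58.3 and 117 CPM from 7 and 18 counts, and 103 CPM in HEK293FT from 93 counts. In K562 they were 22.9 and 21.3 CPM in the kit table and 42.1 and 21.3 CPM in the size selection table, the last from 1 count. Over all 26 libraries the highest K562 level was 42.1 CPM and the lowest HEK level 58.3 CPM, so the lines did not overlap. Against HEK293T the undepleted kit table pair was 3.73-fold lower (log2 fold change -1.90 ± 0.41 SE, edgeR adjusted p = 1.97e-05), and against HEK293FT 4.59-fold lower (log2 fold change -2.20 ± 0.26 SE, edgeR adjusted p = 3.07e-16). These comparisons called 44.5% and 60.4% of the 5551 genes tested (21.7% and 30.2% lower, and 22.8% and 30.2% higher, in K562), so a call alone is common, and 3 and 2 of the 5 tested members were among them. The HEK293T call rested on 1 library: without the second undepleted HEK293T library the log2 fold change was -1.14 with an edgeR adjusted p of 0.238 and 1 member was called. The shallower K562 size selection pair was lower on the log2 scale (-1.14 ± 0.56), and this difference did not pass (edgeR adjusted p = 0.108). In that comparison 29.3% of genes (16.5% higher, 12.8% lower) and 1 of 5 tested members were called, namely ASNS. Without its 20 to 34 nt library PPP1R15A was called as well, and without its 20 to 60 nt library TRIB3 was, which gave 2 members each time.

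The deeper libraries, added as an alternative after the data had been seen, gave smaller standard errors. These errors measure the spread between libraries of the same experiment, and in the sets without nuclease the kits of a line were pooled. Line, experiment and kit change together in these deeper sets, in which the lines share no kit. In the 8 K562 kit table libraries made without nuclease, ATF4 lay between 21.3 and 29.2 CPM with a median of 24.6 CPM, from 624 counts in all. In the 6 HEK293T libraries made without nuclease, it lay between 58.3 and 117 CPM with a median of 88.7 CPM, from 138 counts. The log2 fold change between them was -1.68 ± 0.16 (edgeR adjusted p = 1.18e-20), where 67.6% of 8740 genes were called. Between the deepest libraries of each line, the cold elution pair of K562 (28.3 and 23.5 CPM) and the custom oligo library of HEK293FT (92.7 CPM), it was -1.78 ± 0.11 (edgeR adjusted p = 9.14e-36), with 77.8% of 11594 genes called. The HEK lines did not differ from each other beyond their error in ATF4 (log2 fold change 0.30 ± 0.34, edgeR adjusted p = 0.732). In bulk libraries, fewer cells that translate a gene and fewer footprints per cell cannot be told apart.

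The other transcription factors had few counts. CEBPG, a bZIP partner that dimerises with ATF4 (chromosome 19, 33373330 to 33382686, plus strand), read 22.2 and 28 CPM in the undepleted and custom oligo libraries of HEK293FT. It read 18.5 and 9.69 CPM in the undepleted K562 kit table pair, and 0 and 32.6 CPM in the HEK293T pair, which overlapped K562 on both sides. The 8 K562 libraries without nuclease ran from 9.69 to 18.5 CPM and the 6 of HEK293T from 0 to 45.1 CPM. CEBPG was lower in K562 in that set (log2 fold change -0.82 ± 0.27, edgeR adjusted p = 0.00512) and between the deepest libraries (log2 fold change -0.89 ± 0.17, edgeR adjusted p = 7.36e-07). It was below the count filter in the undepleted fit.

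ATF5, which has upstream reading frames like those of ATF4 (chromosome 19, 49929143 to 49933935, plus strand), gave 1 count in the 2 undepleted HEK293T libraries together and 5 and 7 counts (4.4 and 6.78 CPM) in those of the K562 kit table. DDIT3, which encodes CHOP, a factor of prolonged stress (chromosome 12, 57516593 to 57520517, minus strand), gave 0 counts in the HEK293T pair, where the floor of 3 counts over the group is 11 CPM, and 5.28 and 4.85 CPM in the K562 pair. Both genes were below the count filter in the undepleted fit and, with no filter, were not called in K562 against HEK293T (edgeR adjusted p = 0.845 for ATF5 and 0.397 for DDIT3) or HEK293FT (edgeR adjusted p = 0.455 and 0.302). They passed between the deepest libraries. There ATF5 was 5.2 and 7.07 CPM in K562 and 3.13 CPM in HEK293FT (log2 fold change 1.02 ± 0.39, edgeR adjusted p = 0.0135), and DDIT3 was 2.77 and 4.66 CPM where HEK293FT had 1.74 CPM (fitted difference on the log2 scale 1.14 ± 0.54, edgeR adjusted p = 0.0465). In that comparison these 2 factors were higher in K562 and ATF4 and CEBPG lower, with 10 DDIT3 counts on the HEK293FT side.

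**Figure D1:**
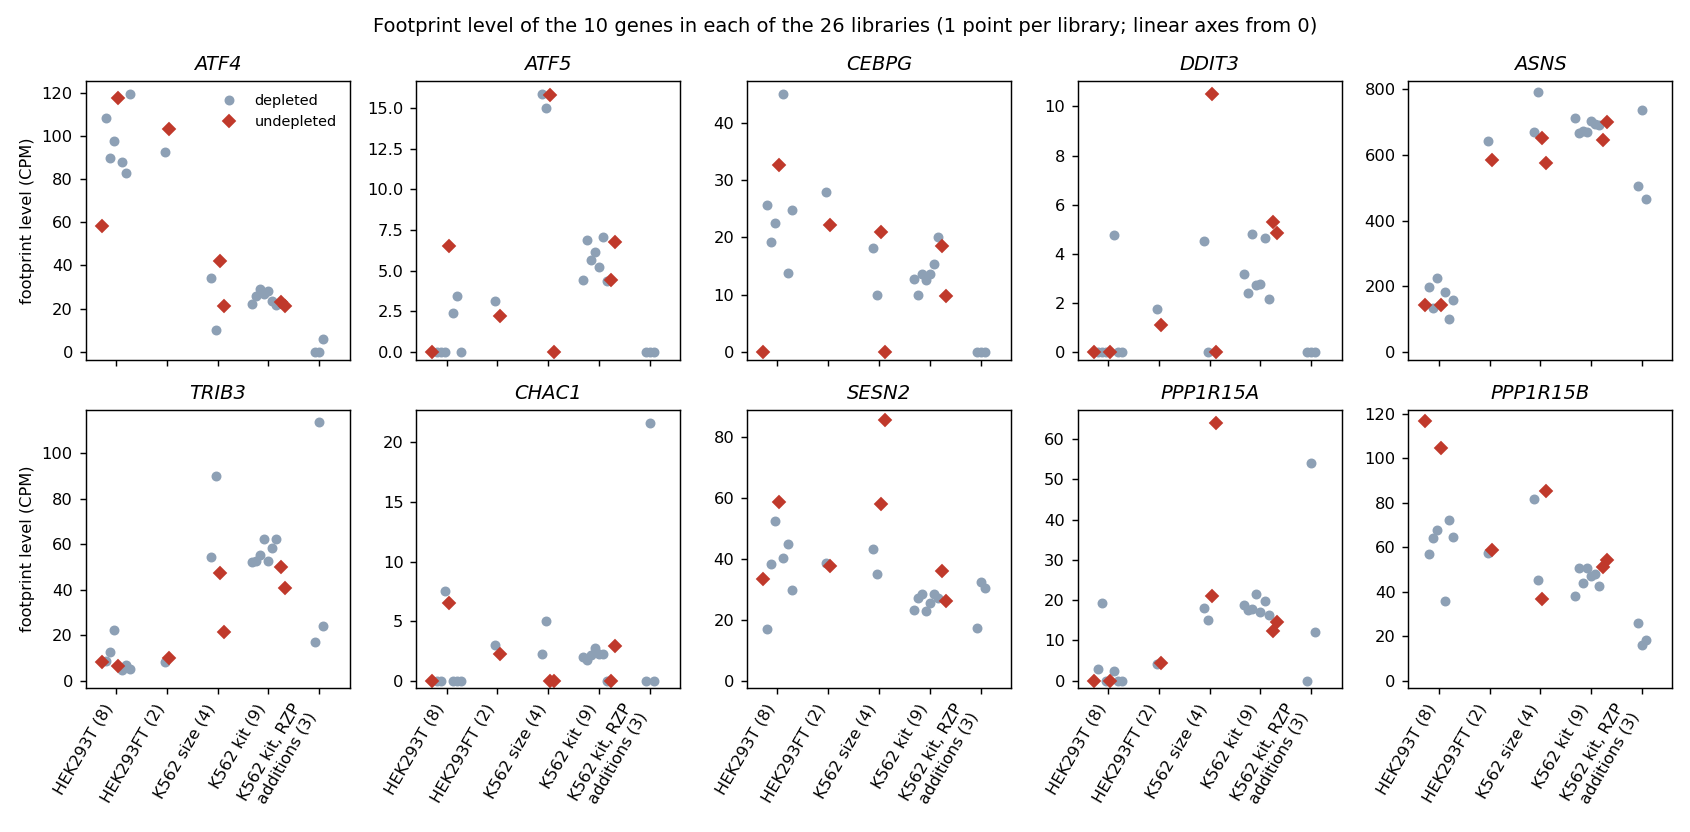
Footprint level in CPM on linear axes for each of the 10 genes, 1 point per library, with undepleted libraries as red diamonds and depleted ones as grey circles; the last column holds the 3 Ribo-Zero Plus (RZP) libraries with additions. ATF4 lies at 58.3 CPM or more in every HEK library and at 42.1 CPM or less in every K562 library, while ASNS lies at 225 CPM or less in HEK293T and at 466 CPM or more elsewhere.

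Among the targets, ASNS was by far the best covered. It encodes asparagine synthetase, which makes asparagine from aspartate and glutamine (chromosome 7, 97852118 to 97872542, minus strand, 11 coding exons). Undepleted HEK293T libraries read 142 and 143 CPM. The undepleted pair of the K562 kit table read 646 and 699.7 CPM, the size selection libraries 652 and 576 CPM, and HEK293FT 586 CPM. HEK293T alone was low: its 8 libraries ran from 99.8 to 225 CPM, and the lowest of the other 18 libraries was at 466 CPM. How many of all genes separate in this way was not computed. The log2 fold change from HEK293T was 2.37 ± 0.19 in the K562 kit table (5.17-fold, edgeR adjusted p = 3.7e-35), 2.28 ± 0.24 in the K562 size selection table (edgeR adjusted p = 3.53e-19) and 2.16 ± 0.20 in HEK293FT (4.47-fold, edgeR adjusted p = 8.12e-24). These 3 comparisons share the 2 undepleted HEK293T libraries. In HEK293FT against HEK293T only 7.58% of the 5551 genes were called (4.77% higher, 2.81% lower), and ASNS was the 1 member of 5 tested that was. Between K562 and HEK293FT, ASNS differed little: the difference of 0.21 ± 0.08 on the log2 scale passed (edgeR adjusted p = 0.0152), but fell to 0.16 with an edgeR adjusted p of 0.266 without the second undepleted K562 library, which left 1 member called, and did not pass in DESeq2 (log2 fold change 0.17, adjusted p = 0.428).

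TRIB3, a pseudokinase that binds ATF4 and restrains it (chromosome 20, 380617 to 397559, plus strand), was high in K562. Each undepleted HEK293T library held 1 TRIB3 count (8.33 and 6.52 CPM) and the HEK293FT libraries read 9.99 and 8.18 CPM. The undepleted K562 kit table pair read 50.2 and 40.7 CPM, and the 8 K562 libraries without nuclease ran from 40.7 to 62.3 CPM. Those 8 lay above every HEK library, of which the highest, a NEBNext one, read 22.5 CPM from 3 counts. Not all K562 libraries did. The remaining ones ran from 17.1 CPM with formaldehyde (2 counts) to 114 CPM with oligos (21 counts), both with Ribo-Zero Plus. The undepleted size selection libraries read 47.3 and 21.3 CPM from 9 and 1 counts. The share of all genes separated in this way was not computed. The filter on low counts left TRIB3 out of the undepleted fit. Without that filter it was higher in the K562 kit table than in HEK293T (99 and 2 counts, a CPM ratio of 6.25 with a 95% counting interval of 1.68 to 52.3; edgeR adjusted p = 0.00142; 22.9% of genes called) and than in HEK293FT (log2 fold change 2.16 ± 0.43, edgeR adjusted p = 2.93e-06; 37.1% called). The libraries without nuclease gave 3.05 ± 0.29 against HEK293T (edgeR adjusted p = 2.28e-20), and the deepest libraries 2.82 ± 0.17 against HEK293FT (edgeR adjusted p = 4.82e-36).

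Taken within a library and per kilobase of coding sequence, which allows levels of different genes to be compared, ASNS stood at 0.756 to 1.52 times ATF4 in the 8 HEK293T libraries. It stood at 3.55 and 4.34 times ATF4 in HEK293FT. In the 9 K562 kit table libraries with more than 3 ATF4 counts the ratio ran from 14.4 to 20.5, and in the 2 such libraries of the size selection table it was 12.4 and 9.70. The measured ratios of the 3 lines did not overlap in these libraries, and the share of other gene pairs without overlap was not computed. TRIB3 stood at 0.0949 and 0.0865 times ATF4 in HEK293FT at 1.83 to 2.82 times ATF4 in those 9 K562 libraries, and at 1.57 and 1.10 times in the 2 of the size selection table.

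SESN2 encodes a sestrin that senses leucine and restrains mTORC1 (chromosome 1, 28259527 to 28282491, plus strand, 10 coding exons). Its undepleted levels overlapped between lines, at 33.3 and 58.6 CPM in HEK293T, 37.7 CPM in HEK293FT and 36.1 and 26.2 CPM in the K562 kit table. It was not called in any undepleted comparison, with log2 fold changes of K562 over HEK293T of -0.46 ± 0.50 in the kit table and 0.54 ± 0.60 in the size selection table. The deepest libraries separated 25.5 and 28.3 CPM in K562 from 38.4 CPM in HEK293FT (log2 fold change -0.45 ± 0.14, edgeR adjusted p = 0.00158). CHAC1, an enzyme that degrades glutathione (chromosome 15, 40953149 to 40956519, plus strand), had 52 counts in the 8 K562 libraries without nuclease (2.13 CPM over the group, 95% exact binomial interval 1.59 to 2.80 CPM). It had 19 counts in HEK293FT (2.86 CPM, 1.72 to 4.46 CPM) and 1 count in the 6 HEK293T libraries (0.670 CPM, 0.0170 to 3.73 CPM). All 3 intervals overlap, and no difference in CHAC1 was detectable at this depth. These intervals cover counting error only.

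PPP1R15A (GADD34) is the stress-induced subunit that brings the phosphatase to eIF2, and PPP1R15B (CReP) the one present without stress. PPP1R15A (chromosome 19, 48872392 to 48876057, plus strand) gave 0 counts in both undepleted HEK293T libraries, 4 counts (4.44 CPM) in HEK293FT, and 14 and 15 counts (12.3 and 14.5 CPM) in the K562 kit table pair. The K562 kit table mean of 13.43 CPM was 1.22 times the floor of 3 counts over the HEK293T group. The exact binomial upper limit for the 0 counts of that HEK293T group was 13.49 CPM. That limit lies above the K562 mean, so these counts set no minimum fold difference. In the undepleted fit the difference did not pass (edgeR adjusted p = 0.134), and with no filter on low counts it did (edgeR adjusted p = 0.0459). In the libraries without nuclease it was 17.7 CPM at the median of 8 K562 libraries and 1.19 CPM at the median of 6 HEK293T libraries (log2 fold change 2.58 ± 0.48, edgeR adjusted p = 4.82e-07). The ranges, 12.3 to 21.5 CPM and 0 to 19.2 CPM, overlap through 1 RiboCop library of HEK293T with 3 counts. Between the deepest libraries PPP1R15A was 17 and 19.7 CPM in K562 and 4.18 CPM in HEK293FT (log2 fold change 2.19 ± 0.26, edgeR adjusted p = 7.07e-14).

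PPP1R15B (chromosome 1, 204403387 to 204411791, minus strand) read 117 and 104 CPM in the undepleted HEK293T pair, 51.1 and 54.3 CPM in the K562 kit table pair and 58.8 CPM in HEK293FT. The undepleted HEK293T pair was the highest of the 4 HEK293T groups, whose other 6 libraries ran from 35.6 to 72.3 CPM. The undepleted K562 pair was lower than that of HEK293T (log2 fold change -0.92 ± 0.33, edgeR adjusted p = 0.0135), but that call was lost in most other settings. The log2 fold change was -0.27 in the libraries without nuclease (edgeR adjusted p = 0.131), -0.34 between the riboPools and RiboCop pairs (edgeR adjusted p = 0.352; 45.7% of genes called), and -1.01 in DESeq2 (adjusted p = 0.0633). It was -0.76 and -0.90 without the first or the second undepleted HEK293T library (edgeR adjusted p = 0.199 and 0.161), and -0.86 without the first undepleted K562 library (edgeR adjusted p = 0.0561). Against HEK293FT the difference was -0.15 ± 0.25 (edgeR adjusted p = 0.625).

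In the libraries without nuclease, 5 of the 7 members tested were called between K562 and HEK293T, with ASNS, TRIB3 and PPP1R15A higher and ATF4 and CEBPG lower in K562. Between the deepest K562 and HEK293FT libraries, 8 of 9 tested were called, with ASNS, TRIB3, PPP1R15A, ATF5 and DDIT3 higher and ATF4, CEBPG and SESN2 lower. With 67.6% and 77.8% of all genes called in these sets, the members' shares lie near those of all genes. The HEK293FT side of the second is a single library, which is assumed to vary like the K562 pairs. In both sets the kits also differ between the lines.

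**Figure D2:**
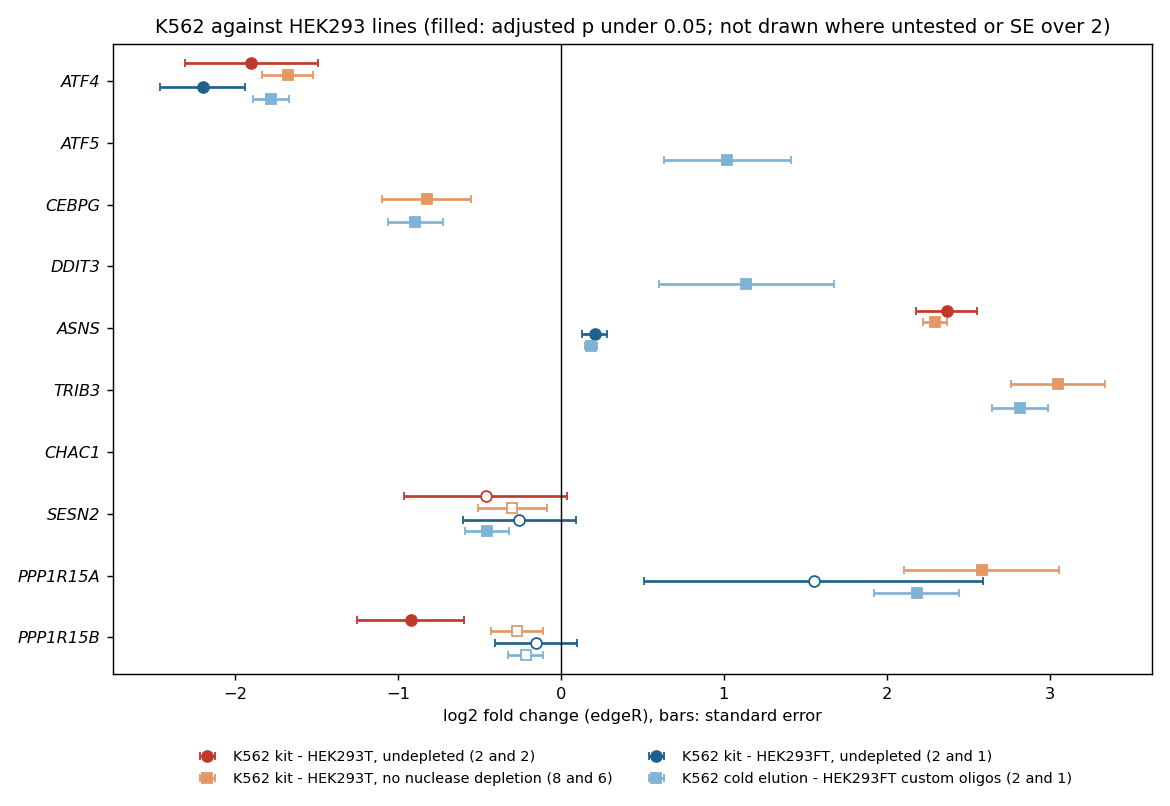
Log2 fold change of K562 over HEK293T (red and orange) and over HEK293FT (blue) for each gene, with bars for the standard error; circles are undepleted libraries, squares the deeper sets, and filled symbols passed an adjusted p under 0.05. ATF4 lies between -2.20 and -1.68 in all 4 comparisons, whereas ASNS lies at 2.30 and 2.37 against HEK293T and at 0.18 and 0.21 against HEK293FT.

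Ordered by level per kilobase, the members ran differently in the 3 lines. In the 8 K562 libraries without nuclease, ASNS led with 409 CPM per kb, followed by TRIB3 with 51.0 and CEBPG with 29.8. ATF4 followed with 24.3, PPP1R15B with 22.2 and SESN2 with 18.5, and then came PPP1R15A with 8.99, DDIT3 with 7.12, ATF5 with 7.03 and CHAC1 with 3.20. The ranges of ASNS stood clear of all others there, and the ranges of each pair of neighbours from TRIB3 to SESN2 overlapped, as did those from PPP1R15A to ATF5. In the 6 HEK293T libraries, ASNS (93.5 CPM per kb) and ATF4 (87.8) overlapped in range, and TRIB3 (6.86) came after CEBPG (59.5), PPP1R15B (30.1) and SESN2 (25.6). In the 2 HEK293FT libraries, ASNS (377 CPM per kb) was followed by ATF4 (89.4) and CEBPG (60.5), and TRIB3 (7.84) was again below SESN2 (26.6).

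The kits were compared with the undepleted libraries of their own table. In HEK293T, 3 members had enough counts (ATF4, PPP1R15B and ASNS), and 0 were called by edgeR with Ribo-Zero Gold, RiboCop or NEBNext, where 0.068%, 0% and 3.24% of 4410 genes were called. DESeq2 also called 0 members in each, although with NEBNext it gave an adjusted p for only 1. At an unadjusted p under 0.05 in edgeR there was 1, PPP1R15B with Ribo-Zero Gold, which read 56.9 and 35.6 CPM, where the undepleted pair had 117 and 104 CPM (log2 fold change -1.27 ± 0.38, edgeR adjusted p = 0.4). For ATF4 the log2 fold changes were 0.09 ± 0.34, -0.11 ± 0.38 and 0.29 ± 0.38 with Ribo-Zero Gold, RiboCop and NEBNext, and for ASNS they were 0.40 ± 0.26, -0.35 ± 0.32 and 0.40 ± 0.30. In the K562 size selection table, 4 members were tested for NEBNext and 0 called by edgeR (2.85% of 3715 genes called), with 0 at an unadjusted p under 0.05. DESeq2 gave an adjusted p for 1 of them and called 0. ASNS read 671 and 791 CPM with NEBNext and 652 and 576 CPM without (log2 fold change 0.23 ± 0.18, edgeR adjusted p = 0.635). Whether NEBNext acted differently in K562 and HEK293T was also tested, with 5 members tested and 0 called by edgeR (0.671% of 5365 genes). The 1 member at an unadjusted p under 0.05 was PPP1R15B (difference of log2 fold changes 1.44 ± 0.63, edgeR adjusted p = 0.426).

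In the K562 kit table all 10 members were tested. With FastSelect, riboPools and cold elution, edgeR and DESeq2 each called 0 of 10, where edgeR called 0.0197%, 0.0887% and 0.237% of 10142 genes. For ASNS, with 3513 to 8091 counts per pair, the log2 fold changes were 0.04 ± 0.05, 0.00 ± 0.05 and 0.05 ± 0.04. Those of ATF4 were 0.13 ± 0.24, 0.33 ± 0.24 and 0.22 ± 0.22. TRIB3 had 0.20 ± 0.17 with FastSelect, 0.28 ± 0.16 with cold elution and 0.38 ± 0.17 with riboPools, where it was the 1 member at an unadjusted p under 0.05 (edgeR adjusted p = 0.784). Ribo-Zero Plus alone, a single library, called 20.3% of genes and 0 of 10 members, with 1, TRIB3, at an unadjusted p under 0.05 (62.5 CPM, where the undepleted pair had 50.2 and 40.7 CPM; log2 fold change 0.47 ± 0.20, edgeR adjusted p = 0.0792). DESeq2 called 0 of the 7 members it gave an adjusted p for. A fit of all 12 libraries let the effects of oligos and formaldehyde add up and averaged Ribo-Zero Plus over its libraries with and without additions. It called 1 member, ASNS, lower in that average (log2 fold change -0.31, edgeR adjusted p = 0.0338, with 14.9% of genes called). That average is another quantity than Ribo-Zero Plus alone. With 1 mean per condition, ASNS had a log2 fold change of 0.06 ± 0.06 for Ribo-Zero Plus alone (edgeR adjusted p = 0.473). It read 692 CPM in that library and 646 and 699.7 CPM undepleted.

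The 3 Ribo-Zero Plus libraries with additions were the shallowest of that table, at 184722, 116742 and 165153 counts for oligos, formaldehyde and both. The gene in the middle of all 10142 had a log2 fold change of -0.64, -1.25 and -0.81 in them. The 10 erythroid markers summed to 9225, 6133 and 3712 CPM in these libraries and to between 11031 and 11806 CPM in the other 9 of the table, and 5 of the 10 were called lower in each of the 3. The part of depth and of this marker difference in the members' values was not tested. With oligos, 5 of 10 members were called, 3 higher and 2 lower, and 29.3% of genes were (9.51% higher, 19.8% lower). PPP1R15A read 54.1 CPM from 10 counts (log2 fold change 1.87 ± 0.59, edgeR adjusted p = 0.0115), TRIB3 114 CPM from 21 counts (1.17 ± 0.38, edgeR adjusted p = 0.0148) and CHAC1 21.7 CPM from 4 counts (edgeR adjusted p = 0.0186), where the undepleted pair had 3 counts (ratio 15.6, 95% counting interval 2.65 to 107). PPP1R15B read 16.2 CPM from 3 counts, the same as the floor (undepleted over oligos 3.24, 95% counting interval 1.08 to 15.9; edgeR adjusted p = 0.0323). ATF4 had 0 counts, and the undepleted mean of 22.1 CPM was 1.36 times the floor of 3 counts (edgeR adjusted p = 0.0181). The exact 95% upper limit for those 0 counts was 19.97 CPM, which lies within the undepleted counting interval of 16.33 to 29.36 CPM. DESeq2 called PPP1R15A and TRIB3 (adjusted p = 0.0362 and 0.0313), did not call ATF4 (adjusted p = 0.134) and gave none for CHAC1. PPP1R15B did not pass with total count scaling (log2 fold change -1.69, edgeR adjusted p = 0.0572) or with the size factors of DESeq2 in edgeR (-1.66, edgeR adjusted p = 0.0637), and CHAC1 did not pass without the first undepleted library (log2 fold change 2.73, edgeR adjusted p = 0.0754).

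ASNS was the 1 member of 10 called with formaldehyde (25.7% of genes called) and with oligos and formaldehyde (30.1% called). It read 505 CPM from 59 counts and 466 CPM from 77 counts, below all other K562 libraries (log2 fold changes -0.64 ± 0.18 and -0.69 ± 0.16, edgeR adjusted p = 0.00392 and 0.000293). The middle gene of all tested had log2 fold changes of -1.25 and -0.81 in the same libraries. How far low counts at these depths set those values was not tested, so ASNS cannot be ranked against that gene. The ASNS call with formaldehyde was lost with total count scaling (-0.41, edgeR adjusted p = 0.0862). Both ASNS calls were lost in DESeq2 (-0.42 and -0.48, adjusted p = 0.205 and 0.111). Without the second undepleted library CEBPG, at 0 counts, joined ASNS with oligos and formaldehyde, which gave 2 members. With oligos alone ASNS read 736 CPM (log2 fold change -0.02 ± 0.13). For size selection, no difference was detectable in the members at this depth: 4 were tested between 20 to 60 nt and 20 to 34 nt in K562 and 0 called by edgeR, with 0 at an unadjusted p under 0.05 (0.162% of 3715 genes called).

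HEK293FT had 1 library per condition, so its depletion by custom oligos has no replicate check. Of the 10726 genes that averaged 10 counts or more, 4.6% differed by 2-fold or more in either direction. ASNS stood at 1.10 times its undepleted level (95% exact binomial interval of the ratio 1.001 to 1.20), ATF4 at 0.898 times (0.719 to 1.13), PPP1R15B at 0.976 times (0.728 to 1.33) and SESN2 at 1.02 times (0.708 to 1.51). The ratios of the other 6 members lay between 0.818 for TRIB3 and 1.57 for DDIT3, with intervals that all included 1.

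**Figure D3:**
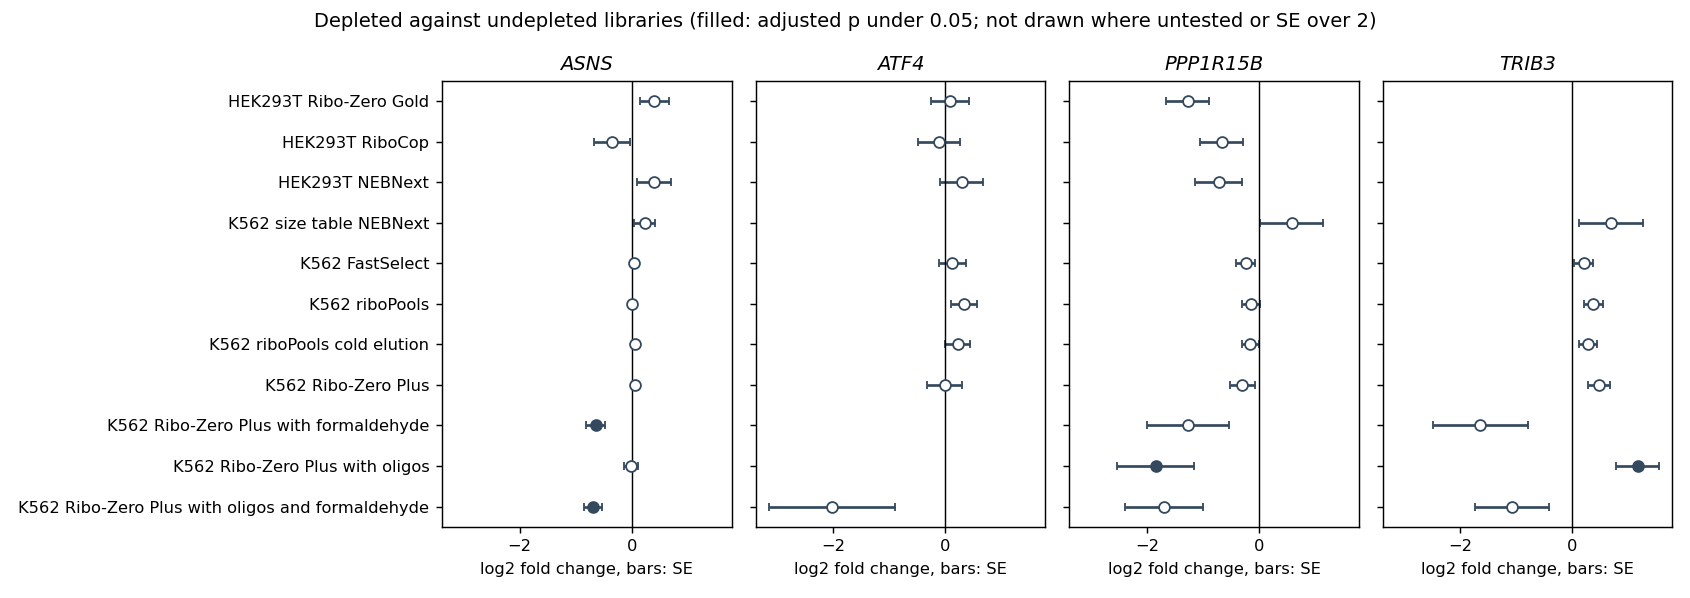
Log2 fold change of each depleted condition over the undepleted libraries of its own table for ASNS, ATF4, PPP1R15B and TRIB3, with bars for the standard error and filled circles for an adjusted p under 0.05. The captured and blocked K562 libraries sit within 0.38 of 0 for these genes, and the filled circles are confined to the Ribo-Zero Plus libraries with additions.

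The wider pathway was described with 7 lists holding 70 other genes, in the same undepleted fits. Against HEK293T, the K562 kit table called 22.8% of genes higher and 21.7% lower, and the middle gene of all tested had a log2 fold change of 0.01. Of 10 aminoacyl-tRNA synthetases linked to ATF4, which charge tRNAs with amino acids, 10 were higher (median 0.94), and 9 of 10 were in the K562 size selection table (median 0.95), where 16.5% of all genes were higher. WARS, the tryptophan enzyme, read 153 ± 31.6 CPM (SD, n = 2) in HEK293T and 532 ± 1.93 CPM (SD, n = 2) in the K562 kit table (log2 fold change 1.96 ± 0.19, edgeR adjusted p = 6.95e-23), and 215 CPM in HEK293FT. CARS, the cysteine enzyme, was higher by 1.51 ± 0.31 on the log2 scale (edgeR adjusted p = 5.31e-06). HEK293FT against HEK293T had 1 synthetase higher, SARS, and 1 lower, EPRS, at a median of 0.24; these 2 are named after their values were seen.

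Of 11 amino acid synthesis enzymes tested, 6 were higher and 2 lower in the K562 kit table (median 0.70). CTH, which makes cysteine from cystathionine, and PCK2, the mitochondrial PEP carboxykinase, were higher (log2 fold change 2.47 ± 0.56 and 2.28 ± 0.43, edgeR adjusted p = 5.12e-05 and 9e-07). PHGDH, the first enzyme of serine synthesis, was lower, at 156 ± 5.33 CPM in K562 and 649 ± 60.5 CPM in HEK293T (SD, n = 2 each; log2 fold change -1.91 ± 0.15, edgeR adjusted p = 5.07e-33), as was ALDH18A1 of proline synthesis (-1.58 ± 0.23, edgeR adjusted p = 7.74e-11). HEK293FT read 1621 CPM for PHGDH. In HEK293FT against HEK293T, 6 of the 11 were higher and 0 lower by edgeR (median 0.83, against 4.77% of genes higher), the comparison in which ASNS was also higher. The 6 were PHGDH, PSAT1, SHMT2, PYCR1, CBS and PCK2, named after their values were seen, with PCK2 at 2.54 ± 0.44 (edgeR adjusted p = 4.45e-07). K562 against HEK293FT had 3 of these 11 enzymes higher and 5 lower (median -0.25), where 30.2% of all genes were higher and 30.2% lower.

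Of 6 amino acid transporters tested, 4 were higher and 0 lower by edgeR in the K562 kit table (median 0.77), among them SLC1A4, which carries alanine, serine and cysteine (163 counts in K562 and 1 in HEK293T, a CPM ratio of 20.6 with a 95% counting interval of 3.64 to 817; edgeR adjusted p = 1.48e-07), and SLC7A5, which carries large neutral amino acids (1.14 ± 0.21, edgeR adjusted p = 3.55e-07). Of 8 subunits of eIF2 and of its exchange factor eIF2B, 4 were higher and 1 lower (median 0.59). EIF2S2, the beta subunit of eIF2, was higher by 0.97 ± 0.17 on the log2 scale (edgeR adjusted p = 1.98e-07), EIF2B3 had a difference of 0.98 ± 0.27 and EIF2B2 one of -1.11 ± 0.38 (edgeR adjusted p = 0.00136 and 0.0101). Of the 4 tested eIF2 kinases and regulators 2 were higher, including GCN1, the activator of the amino acid sensing kinase (0.61 ± 0.17, edgeR adjusted p = 0.00136).

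Of 6 other bZIP factors tested, 1 was higher and 2 were lower (median 0.45). JUND was higher (log2 fold change 2.30 ± 0.46, edgeR adjusted p = 4.63e-06) and JUN lower, at 20.3 ± 1.24 CPM against 286 ± 74.6 CPM in HEK293T (SD, n = 2 each; -3.70 ± 0.28, edgeR adjusted p = 1.56e-38). Of 7 stress and growth effectors tested, 4 were higher and 1 lower (median 0.78). GDF15, a secreted stress cytokine, had 120 counts in the undepleted K562 kit table pair (55.2 ± 4.10 CPM, SD, n = 2) and 0 counts in the undepleted HEK293T and HEK293FT libraries. TXNIP, which binds thioredoxin, read 266 ± 12 CPM in K562 and 12.5 ± 17.7 CPM in HEK293T (SD, n = 2 each), the latter from 3 counts, which is at the floor. The ratio of summed CPM was 24.3 with a 95% counting interval of 8.28 to 118 (edgeR adjusted p = 2.97e-25). The genes named for K562 against HEK293T in these 3 paragraphs were picked because both K562 tables called them in the same direction, and both comparisons share the HEK293T libraries. None of the counts is shown to be particular to its list.

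**Figure D4:**
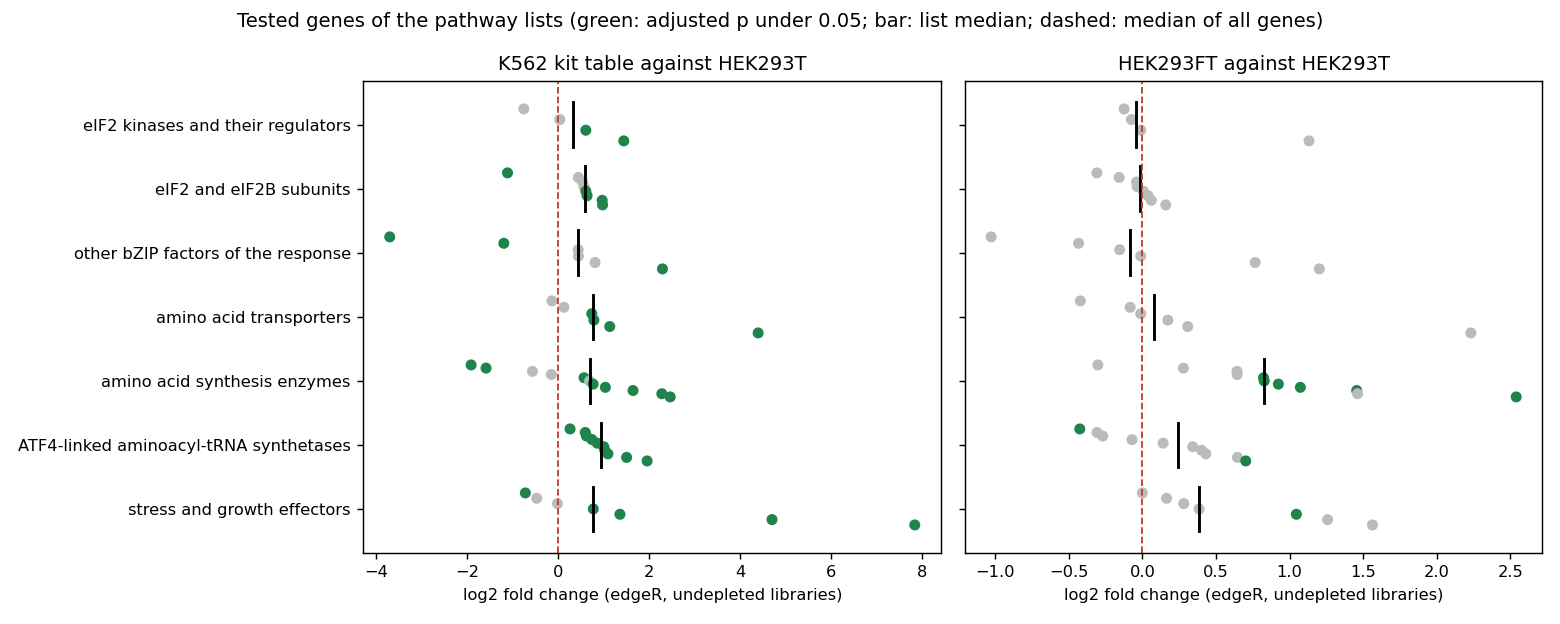
Log2 fold change of the tested genes of 7 pathway lists in undepleted libraries, K562 kit table over HEK293T on the left and HEK293FT over HEK293T on the right (axes differ); green points passed an adjusted p under 0.05, black bars are list medians and the dashed line is the median of all genes. All 10 synthetases lie to the right of 0 in K562, and 6 of the 11 synthesis enzymes are green in HEK293FT.

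Over the 7 undepleted libraries, the 5 genes whose log2(CPM + 1) followed ATF4 most closely, among the 2022 genes that averaged 50 counts or more, were USP11, CHCHD10, RPL39, EIF5A and MLF2. Their Pearson correlations with ATF4 ran from 0.964 to 0.982 (n = 7 libraries, as a description, since libraries of a line and table share their source and depth). None of the 70 pathway genes was among them, but those that averaged fewer than 50 counts, such as GDF15 and FGF21, could not be ranked.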

How the data were processed

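Ribosome footprint counts per coding sequence of 26 libraries were used as the authors deposited them, as whole-number counts of reads in 4 tables that share the same 19478 transcripts. The submitters' processing notes name CASAVA 1.8, STAR and GRCh38. The annotation, filters and treatment of duplicate reads are not given in the sources used here. Gene positions come from GENCODE release 29, matched on transcript identifiers (97.51% with the same version; CHAC1 without it).

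Samples were grouped by their titles. The undepleted libraries of the K562 size selection table carry another label that names NEBNext. Nothing says that replicates were separate cultures, so p-values measure only the spread between these samples, which may be technical. The 2 RiboCop libraries did not differ beyond the sampling noise (chi-square per degree of freedom 1.03, p = 0.103), but their totals differ, 156200 and 290502, and both were kept as samples; with either left out 0 members were called.

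CPM is a count as a share of the library's total, on the usual CPM scale. Tests were edgeR 4.0.16 quasi-likelihood tests (R 4.3.3) with TMM scaling, a filterByExpr filter (minimum count 10) and p-values adjusted by Benjamini-Hochberg across each fit's genes, with calls at an adjusted p under 0.05. The standard error of an edgeR log2 fold change was derived from its test, as the absolute log2 fold change over the square root of the F statistic. Kits were tested within their table with 1 mean per condition, so that a lone library is assumed to vary like the pairs. Lines were tested over the 7 undepleted libraries with 1 mean per table, on 3 residual degrees of freedom. The scripts were tested on simulated data. Intervals are exact binomial at 95% and cover counting error only. Python 3.11.15 and scipy 1.17.1 were used for them.

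The members and lists were chosen with earlier results of these data known. All 10 members were named in each comparison. Of the list genes, up to 2 of the largest rises and 2 of the largest falls per list were named among those called in both K562 tables against HEK293T in the same direction. Alternatives were DESeq2 1.42.0, its size factors in edgeR, total count scaling, no filter, a replicate block, other sets of libraries and leaving out each library. The comparisons of libraries without nuclease and of the deepest libraries were added after seeing the data.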

Additional observations from a re-analysis of the deposited data

How the results depend on the processing

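No member called in the main fits changed direction under an alternative. The additive fit called ASNS lower in the average of the Ribo-Zero Plus libraries (-0.31), where the main value for Ribo-Zero Plus alone was 0.06 and not called. Of 136 counts of members called under an alternative, 117 stayed within 1.5 times the main count and 19 did not. For the K562 kit table against HEK293T, where 3 members were called, the fit of all 26 libraries, the fit without a filter on low counts and the libraries without nuclease gave 5 each, and leaving out 1 library gave 1 to 3. For the K562 size selection table against HEK293T (1), the fit of all 26 libraries, no filter and total count scaling gave 2 each, and leaving out 1 library 1 to 2. For the K562 kit table against HEK293FT (2), the deepest libraries gave 8, DESeq2 gave 1, and leaving out 1 library 1 to 2. For Ribo-Zero Plus alone (0), the additive fit, which averages its libraries with and without additions, gave 1. With formaldehyde (1), DESeq2, its size factors in edgeR and total count scaling gave 0. With oligos (5), DESeq2 gave 2. With both (1), DESeq2 gave 0 and leaving out 1 library 1 to 2. Of 112 log2 fold changes of called members, 92 stayed called and 20 did not; the cause was not tested. With a replicate block, 0 members were called in any of 6 kit comparisons, as without it, and the block gave 154 genes in place of 143 for NEBNext and 27 in place of 24 for cold elution. The labels do not say what a shared replicate number means. Deviations of same-numbered libraries correlated at 0.064 to 0.137 in HEK293T and at -0.049 to 0.020 in K562, so a pairing was not established and is not shown to be absent in HEK293T. Counts over all genes moved by more than 1.5 times in 43 of 136 alternatives. The totals called by DESeq2 and by edgeR follow in that order, and how far their genes overlap was not counted. Against HEK293T they were 1637 and 2471 for the K562 kit table and 1050 and 1624 for the size selection table. Against HEK293FT the kit table gave 1734 and 3351. They were 170 and 421 for HEK293FT against HEK293T, 58 and 143 for HEK293T NEBNext, and 16 and 106 for K562 NEBNext. For Ribo-Zero Plus they were 33 and 2063 alone, 881 and 2604 with formaldehyde, 921 and 2972 with oligos, and 1140 and 3052 with both. Fits without 1 library used edgeR. Without the 20 to 34 nt undepleted library the size selection count fell to 528, and without the first or second undepleted HEK293T library the HEK293FT count was 217 or 173. The K562 size selection fit for NEBNext has no residual degrees of freedom without 1 library, so it was not refitted.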
